A study of Mus musculus with 6 samples.

Results

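The genes described here encode matricellular proteins, elastic-fibre proteins and proteoglycans of the extracellular matrix. They form a list of 54 genes, compiled by name and function with earlier results of these data known. Of these, 51 lay on array rows with a single gene symbol, among 19938 genes measured in all. Loxl2 lay on a row shared with another gene, and Spp1 and Fbn1 are not analysed here. The cells were mouse embryonic stem cells of the W4/129S6 background, in which a green fluorescent protein (GFP) reporter sits in the Nkx2-1 locus. Nkx2-1 encodes a homeodomain factor of lung, thyroid and ventral forebrain. The cells were differentiated for 14 days and sorted into 3 GFP-positive samples, called Nkx2-1 high, and 3 GFP-negative samples, called Nkx2-1 low. All 6 samples carry the reporter, both fractions came from differentiated cultures, and the labels call the replicates biological without saying whether a number marks a shared culture, so p-values measure the spread between these samples. The comparison asks how the fraction sought as lung and thyroid progenitors differs from the other cells of the culture.

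Matricellular proteins, such as tenascins, periostin and thrombospondins, are secreted proteins that bind cell-surface receptors and structural matrix and tune adhesion rather than build fibres. Elastic fibres consist of elastin laid down on fibrillin microfibrils with the help of fibulins and cross-linked by lysyl oxidases, and latent TGF-beta-binding proteins tether the inactive growth factor to the same microfibrils. Proteoglycans are core proteins that carry glycosaminoglycan chains. The lecticans among them bind hyaluronan, and the small leucine-rich ones bind collagen fibrils. In the developing lung, elastic fibres made by mesenchymal cells surround the forming airspaces.

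Nkx2-1 itself had log2 expression of 7.62, 7.77 and 7.77 in the Nkx2-1 high samples, against 5.42, 5.23 and 5.34 in the Nkx2-1 low samples, a difference of 2.39 ± 0.08 (SE, limma adjusted p = 3.03e-06). With 3 samples against 3, the two-sided exact permutation p was 0.1, which no such design can go below. The cells were sorted on this gene, so it checks the labels only. Values throughout are the deposited log2 expression values. Each difference subtracts the Nkx2-1 low mean and carries its standard error (SE) from a limma fit over all 19938 genes. A gene with an adjusted p under 0.05 is called, and it is said to have risen or fallen by its direction in the Nkx2-1 high samples. A level of 4.30, the 95th percentile of olfactory and vomeronasal receptor rows, was taken as background, and a gene is above it where a group's mean is. Of 11 markers of lung and thyroid endoderm, 9 were above it, while Sftpc and Tg were not. Of the 11, 2 rose, the transcription factor genes Hhex (0.98 ± 0.15) and Pax8 (0.60 ± 0.10), and 1 fell, the epithelial adhesion gene Epcam, with 4.31 ± 0.17 in Nkx2-1 high against 5.13 ± 0.17 in Nkx2-1 low (SD, n = 3 each). These are sorted bulk samples, in which fewer cells of a type and less RNA per cell cannot be told apart.

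The matrix genes changed often and in both directions. Of the 51 measured, 8 rose and 8 fell. That is 15.7% in each direction for the list, while 2.90% of all genes were called higher and 3.09% lower. Because the list was chosen with earlier results of these data known, its shares describe it and test nothing. Of the genes above background 8.40% were called in either direction, against 16 of the 45 members above background. The median difference of the list was 0.02, beside -0.01 over all genes. At least 2-fold changes were called for 5 of the 51, 2 higher and 3 lower, where 0.792% of all genes had such a change. In 28 of the 51 the samples of the groups did not overlap, against 24.7% of all genes. Above background this held for 26 of 45 members, against 4200 of 13404 genes. The split by role is shown in the plot of differences by role: 3 of 5 adhesive glycoproteins and 2 of 4 latent TGF-beta-binding proteins rose, while 2 of 4 tenascins and 3 of 10 elastic-fibre proteins fell. Leaving out samples changed the counts. Dropping replicate 1 of Nkx2-1 high left 5 higher and 6 lower, dropping its replicate 2 left 5 and 4, and dropping its replicate 3 left 8 and 6. Of Nkx2-1 low, dropping replicate 1 left 5 higher and 6 lower, dropping replicate 2 left 5 of each, and dropping replicate 3 left 4 and 6. Of the 16 calls, 8 were kept in all 6 fits without 1 sample, 4 higher (Edil3, Ltbp1, Npnt and Prelp) and 4 lower (Tnn, Postn, Tnc and Fbln1), and these 8 also had an adjusted p under 0.01.

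**Figure D1:**
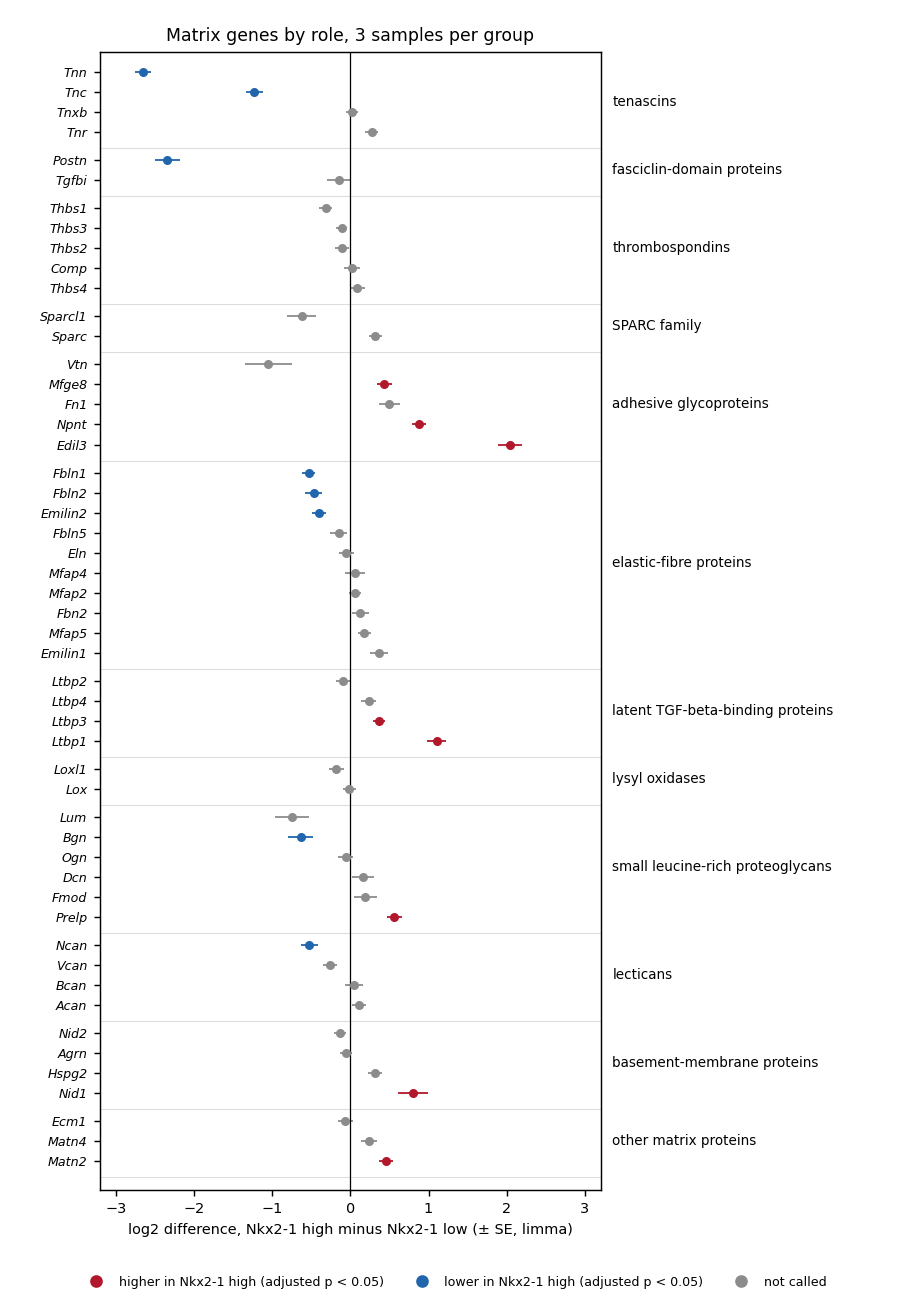
Log2 difference (Nkx2-1 high minus Nkx2-1 low, horizontal axis) of the 51 measured matrix genes, grouped by role, with the SE from limma as bars. Red points rose, blue points fell and grey points were not called. Edil3 stands out to the right at 2.05, and Tnn and Postn to the left at -2.65 and -2.34.

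**Figure D2:**
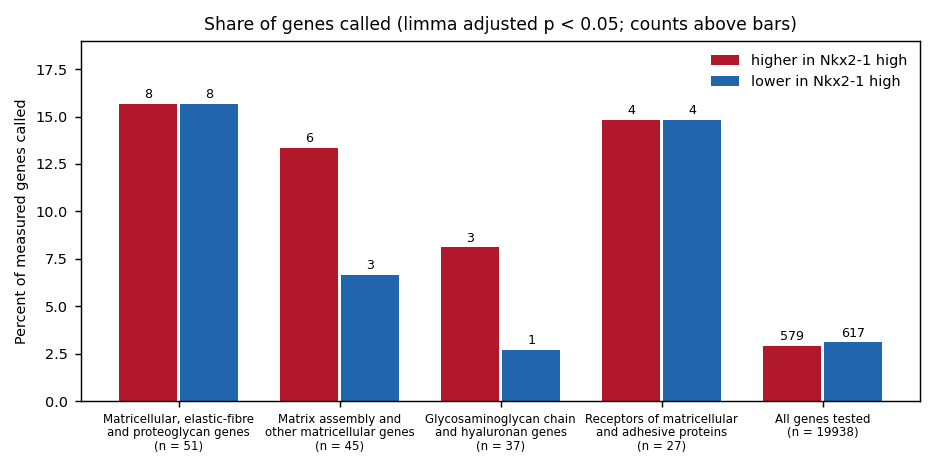
Percent of the measured genes of each list that were called higher (red) or lower (blue) in Nkx2-1 high, with the counts above the bars. The bars of the matrix genes, 15.7% in each direction, stand above those of all genes, 2.90% and 3.09%. The matrix and partner lists were chosen with earlier results of these data known.

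The 250 bases upstream of the annotated start are printed for members with large changes that kept the call in all fits without 1 sample, so that genes that fell and genes that rose can be read side by side. The sequences are from RefSeq on GRCm38.p6, and 38 of the 54 genes had an entry. Edil3 had none. Tnn lies at chr1:160153576-160153825 on the minus strand, the downstream start of Postn at chr3:54360857-54361106 and its upstream start at chr3:54359017-54359266, both on the plus strand, and Tnc at chr4:64047016-64047265 on the minus strand. Of the genes that rose, Ltbp1 lies at chr17:75005279-75005528 on the plus strand and Npnt at chr3:132950292-132950541 on the minus strand. Capitals mark matches on either strand to TATAAA (the TATA box), CAAGTG (an NKX2-1 core), TGANTCA (AP-1), CATTCC (a TEAD core) or TAATTA (a homeodomain core).
Tnn: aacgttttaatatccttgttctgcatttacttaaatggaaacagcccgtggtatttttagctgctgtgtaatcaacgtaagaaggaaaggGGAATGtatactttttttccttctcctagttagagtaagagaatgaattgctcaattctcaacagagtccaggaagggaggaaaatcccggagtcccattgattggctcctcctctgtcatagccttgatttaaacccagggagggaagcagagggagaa
Postn, downstream start: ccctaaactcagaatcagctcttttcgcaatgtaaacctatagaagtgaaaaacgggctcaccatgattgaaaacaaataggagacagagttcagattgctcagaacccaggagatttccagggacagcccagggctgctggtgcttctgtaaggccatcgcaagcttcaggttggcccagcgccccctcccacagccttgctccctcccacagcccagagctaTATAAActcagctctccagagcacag
Postn, upstream start: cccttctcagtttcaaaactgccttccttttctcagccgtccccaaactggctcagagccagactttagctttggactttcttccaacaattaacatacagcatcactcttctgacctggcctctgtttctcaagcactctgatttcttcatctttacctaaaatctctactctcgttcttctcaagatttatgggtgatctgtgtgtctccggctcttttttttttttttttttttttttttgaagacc
Tnc: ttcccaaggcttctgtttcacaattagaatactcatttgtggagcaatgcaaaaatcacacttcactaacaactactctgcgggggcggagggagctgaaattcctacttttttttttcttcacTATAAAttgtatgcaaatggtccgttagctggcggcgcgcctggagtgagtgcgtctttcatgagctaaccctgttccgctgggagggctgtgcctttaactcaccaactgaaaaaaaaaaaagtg
Ltbp1: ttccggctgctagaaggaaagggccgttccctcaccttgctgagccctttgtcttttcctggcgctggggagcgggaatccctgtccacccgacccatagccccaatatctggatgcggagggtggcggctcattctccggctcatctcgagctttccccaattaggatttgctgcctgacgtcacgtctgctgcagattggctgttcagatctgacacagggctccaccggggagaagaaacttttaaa
Npnt: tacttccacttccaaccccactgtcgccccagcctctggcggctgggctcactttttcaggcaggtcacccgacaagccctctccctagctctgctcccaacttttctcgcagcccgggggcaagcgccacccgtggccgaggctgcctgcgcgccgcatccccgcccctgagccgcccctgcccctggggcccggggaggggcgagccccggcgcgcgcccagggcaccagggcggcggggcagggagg

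A TATAAA match lies 26 bases before the downstream start of Postn and 126 bases before the printed start of Tnc, and Tnn holds a CATTCC match (read as GGAATG) 160 bases before its start. Tnc has another annotated start, whose window is not printed and whose TATAAA match lies 205 bases before it. Close to that start the window also reads tatataag, which a search for TATAAA does not count. The printed windows of Ltbp1 and Npnt hold none of the 5 motifs. Over the windows of the same length, TATAAA was found in 12.4% of 32851. It was in 4 of 12 windows of members that fell, 0 of 8 of members that rose and 4 of 28 of members not called. The 4 windows of members that fell are those of Ncan, the downstream start of Postn and the pair of Tnc windows, which overlap and share the match. CAAGTG was found in 11.6% of all windows, in 1 of the 8 windows of members that rose, that of Mfge8, and in 0 of the 12 of members that fell. Among members not called it was in 3 of the 28 windows (the pair of Ltbp4 windows overlap and share the match). The median share of G and C was 60.6% over the 8 windows of members that rose, 51.6% over the 12 of members that fell, 61.8% over the 28 of members not called and 52.4% over all windows. A match describes letters and not a site, and no match says only that these letters are not in the window.

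The tenascins, large matricellular proteins of embryonic mesenchyme and developing nervous system, included the largest fall of the list. Tnn, which encodes tenascin-W, a tenascin of forming bone and of stroma, had log2 expression of 5.10, 4.82 and 4.71 in Nkx2-1 high, against 7.47, 7.60 and 7.52 in Nkx2-1 low. All Nkx2-1 high samples lay far below every Nkx2-1 low sample, a 6.29-fold fall (difference -2.65 ± 0.11, limma adjusted p = 3.69e-06). Tnc, the tenascin of condensing mesenchyme and neural crest paths, had 6.85, 6.77 and 6.47 in Nkx2-1 high, against 7.96, 7.86 and 7.95 in Nkx2-1 low. It was 2.34-fold lower with no overlap (difference -1.23 ± 0.10, limma adjusted p = 0.00018), and its level in Nkx2-1 high stayed well above background. The other members of the family differed by 0.27 ± 0.08 for Tnr, a tenascin of the central nervous system that was not above background, and by 0.02 ± 0.08 for Tnxb, whose level lay next to background in each fraction.

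Periostin and its paralog gave unlike values. Postn encodes periostin, a fasciclin-domain protein of periosteum, ligament and stroma that binds integrins and tenascin-C. It had log2 expression of 7.55, 7.72 and 7.42 in Nkx2-1 high, against 10.28, 9.90 and 9.53 in Nkx2-1 low. The groups did not overlap, and the fall was 5.06-fold (difference -2.34 ± 0.16, limma adjusted p = 6.79e-05). Tgfbi, the other fasciclin-domain gene, had 10.14, 9.95 and 9.50 in Nkx2-1 high and 10.10, 10.08 and 9.84 in Nkx2-1 low. These overlap, and the 95% interval of the difference ran from -0.48 to 0.19 (limma adjusted p = 0.680).

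Mesenchyme markers moved with the falls of the tenascins and periostin. Of 11 such markers 7 fell, with Pdgfra averaging 6.53 ± 0.36 in Nkx2-1 high, against 8.53 ± 0.23 in Nkx2-1 low (SD, n = 3 each). Col1a1 averaged 8.99 ± 0.14 in Nkx2-1 high, against 9.88 ± 0.08 in Nkx2-1 low, and Col1a2 8.62 ± 0.07 in Nkx2-1 high, against 10.11 ± 0.09 in Nkx2-1 low. The mean log2 level of the 11 ranged from 7.24 to 7.56 over the Nkx2-1 high samples and from 8.13 to 8.29 over the Nkx2-1 low samples. All 11 were above background in both fractions, and Pdgfrb differed by 0.04 ± 0.16. Markers of neurons and ventral forebrain fell as well, 10 of 11, and their levels are given below with Ncan. The part of either cell type in these results was not tested.

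Thrombospondins and the SPARC family had no member past the test. Of 5 thrombospondins limma called 0, with 1 lower at an unadjusted p under 0.05. That was Thbs1, an activator of latent TGF-beta, with 8.11, 8.18 and 7.95 in Nkx2-1 high, against 8.43, 8.45 and 8.31 in Nkx2-1 low (difference -0.32 ± 0.09, limma adjusted p = 0.0686). Its groups did not overlap, and Thbs2, Thbs3, Thbs4 and Comp differed by between -0.11 and 0.09. Sparc, a collagen-binding matricellular protein, had 9.76, 9.76 and 9.79 in Nkx2-1 high and 9.56, 9.45 and 9.34 in Nkx2-1 low, a difference of 0.32 ± 0.08 just outside the threshold (limma adjusted p = 0.0513). Sparcl1, its paralog, had 8.49, 8.37 and 7.83 in Nkx2-1 high and 9.02, 9.00 and 8.53 in Nkx2-1 low (-0.62 ± 0.18, limma adjusted p = 0.0854, and 0.0382 without Nkx2-1 low replicate 3). The signs of these paralogs were opposite, each with no overlap between groups, and neither passed.

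The adhesive glycoproteins, ligands of RGD-binding integrins, held the largest rise. Edil3 encodes a secreted protein with EGF and discoidin domains that binds the αv integrins and is known from embryonic endothelium. Its log2 expression was 8.31, 8.42 and 8.19 in Nkx2-1 high, against 6.58, 6.30 and 5.90 in Nkx2-1 low. The 3 Nkx2-1 high samples lay close together and above all of Nkx2-1 low, which spread more widely, and the rise was 4.13-fold (2.05 ± 0.15, limma adjusted p = 8.12e-05). Npnt, which encodes nephronectin, a basement-membrane ligand of integrin α8β1, had 7.04, 7.32 and 7.19 in Nkx2-1 high and 6.20, 6.35 and 6.37 in Nkx2-1 low. It rose 1.84-fold with no overlap (0.88 ± 0.10, limma adjusted p = 0.000678).

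Mfge8, the closest relative of Edil3 and a bridge between phagocytes and dying cells, rose less. It had 9.06, 8.72 and 8.82 in Nkx2-1 high, against 8.50, 8.36 and 8.44 in Nkx2-1 low (0.43 ± 0.10, 1.35-fold, limma adjusted p = 0.0332). The call was lost on leaving out each sample in turn except Nkx2-1 high replicate 2 (limma adjusted p from 0.0571 to 0.120). Fn1, the gene of fibronectin, had 10.97, 10.89 and 10.48 in Nkx2-1 high and 10.41, 10.34 and 10.11 in Nkx2-1 low. The groups did not overlap, but the difference of 0.49 ± 0.13 missed the threshold (limma adjusted p = 0.0643), and it passed without Nkx2-1 high replicate 3 (limma adjusted p = 0.0106). Vtn, the gene of vitronectin, a protein made chiefly by liver, had 4.72, 5.14 and 5.24 in Nkx2-1 high and 5.54, 5.81 and 6.90 in Nkx2-1 low. Nkx2-1 low replicate 3 stood apart, and the difference was -1.05 ± 0.30 (limma adjusted p = 0.0766) with it and -0.64 without it (limma adjusted p = 0.0565), while the fit without Nkx2-1 low replicate 1 passed (limma adjusted p = 0.0470).

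Endothelial markers were mixed beside the rise of Edil3. Of 7 such markers 3 rose (Tek, Flt4 and Eng) and 4 did not pass, with differences of -0.17 ± 0.10 for Cdh5, -0.12 ± 0.10 for Flt1, -0.08 ± 0.09 for Kdr and 0.33 ± 0.10 for Pecam1. Over all 7 the differences ran up to 1.10, with a median of 0.33. The mean log2 level of the 7 ranged from 5.10 to 5.23 over the Nkx2-1 high samples and from 4.70 to 4.78 over the Nkx2-1 low samples. Cdh5, a defining gene of endothelium, was not above background in either fraction, and Pecam1 was above it in Nkx2-1 high alone. The part of these cells in the rise of Edil3 was not tested.

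**Figure D3:**
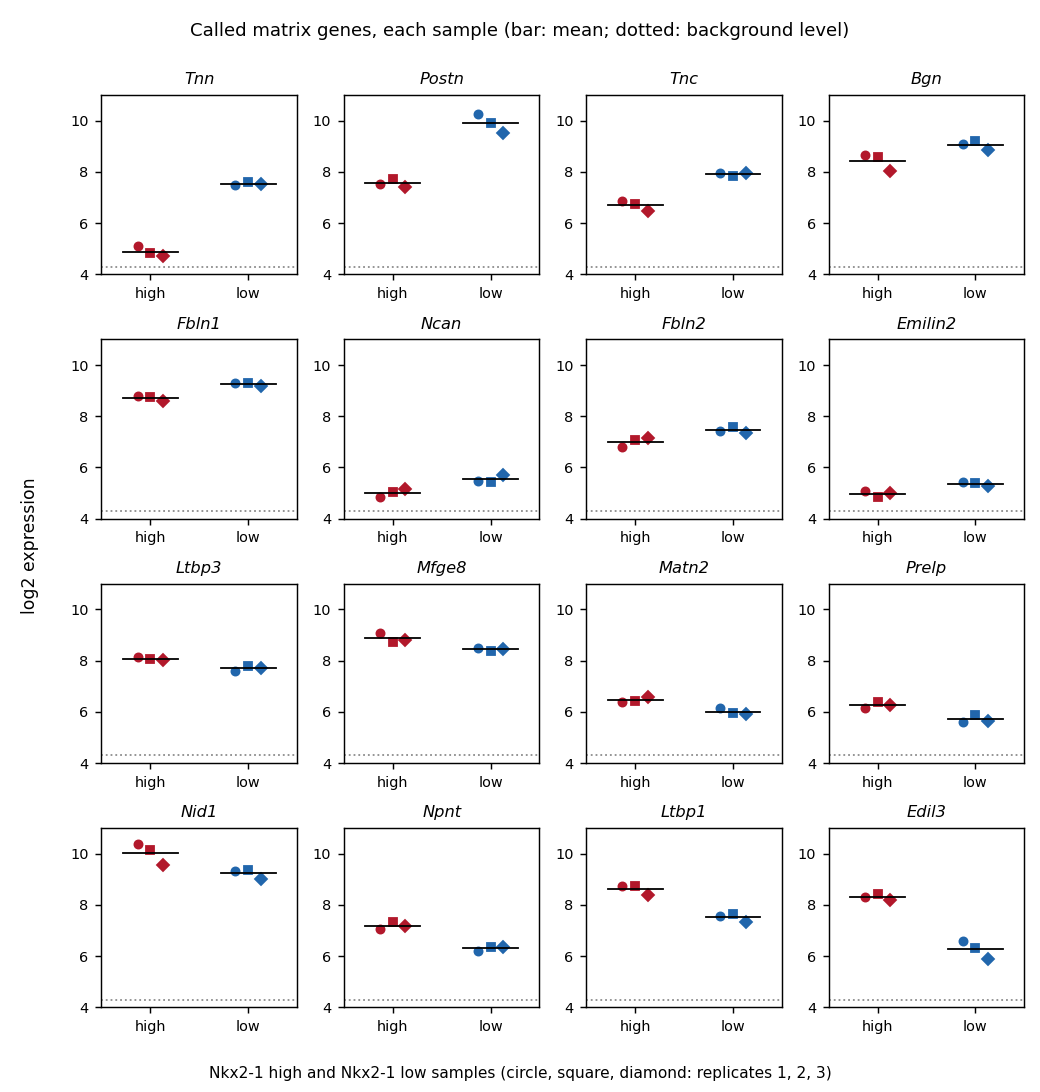
Log2 expression (vertical axis) of the 16 called matrix genes in each Nkx2-1 high sample (red, left) and each Nkx2-1 low sample (blue, right), ordered from the largest fall to the largest rise. Bars are means, symbols mark the replicate number and the dotted line is the background level of 4.30. The groups are far apart for Tnn, Postn and Edil3 and close together for genes such as Emilin2 and Ltbp3.

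Elastic-fibre genes moved unevenly. The core components showed no call: Eln, the gene of elastin, had 6.39, 6.45 and 6.39 in Nkx2-1 high and 6.50, 6.60 and 6.28 in Nkx2-1 low, with an interval of the difference from -0.26 to 0.16. Mfap2, a microfibril glycoprotein, had 11.08, 11.03 and 10.94 in Nkx2-1 high and 11.02, 10.95 and 10.91 in Nkx2-1 low, with an interval from -0.11 to 0.24. The fibrillin gene Fbn2 differed by 0.13 ± 0.11 and Mfap4 by 0.06 ± 0.13, and Mfap5 was not above background.

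The 3 elastic-fibre genes that fell encode fibulins and an emilin, proteins that associate with the fibre. Fbln1, a fibulin that binds fibronectin and basement membranes, had 8.78, 8.77 and 8.61 in Nkx2-1 high, against 9.30, 9.30 and 9.16 in Nkx2-1 low (-0.54 ± 0.08, 1.45-fold, limma adjusted p = 0.0055). Fbln2 had 6.78, 7.09 and 7.13 in Nkx2-1 high and 7.44, 7.60 and 7.36 in Nkx2-1 low (-0.47 ± 0.11, limma adjusted p = 0.0367), a call lost on leaving out each sample in turn except Nkx2-1 high replicate 3 (limma adjusted p from 0.0524 to 0.135) and with cyclic loess between arrays (limma adjusted p = 0.0578). Emilin2 had 5.07, 4.85 and 4.98 in Nkx2-1 high and 5.42, 5.40 and 5.26 in Nkx2-1 low (-0.40 ± 0.09, limma adjusted p = 0.0278). In each the groups did not overlap. The call of Emilin2 was lost without Nkx2-1 high replicate 2 or 3 or Nkx2-1 low replicate 1 or 2 (limma adjusted p from 0.0553 to 0.120). Emilin1, its relative in the same fibres, differed by 0.37 ± 0.11 (limma adjusted p = 0.0977) and Fbln5, which is needed for elastic-fibre assembly in mice, by -0.15 ± 0.11.

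Of the latent TGF-beta-binding proteins, which hold the inactive growth factor in the matrix, 2 of 4 rose. Ltbp1 had 8.72, 8.75 and 8.39 in Nkx2-1 high, against 7.56, 7.66 and 7.34 in Nkx2-1 low. This was a 2.15-fold rise with no overlap (1.10 ± 0.12, limma adjusted p = 0.000668). Ltbp3 had 8.12, 8.05 and 8.03 in Nkx2-1 high and 7.60, 7.80 and 7.71 in Nkx2-1 low (0.37 ± 0.08, limma adjusted p = 0.0291), a call lost without Nkx2-1 high replicate 1 or 2 or Nkx2-1 low replicate 1 or 3 (limma adjusted p from 0.0786 to 0.101). Ltbp4 differed by 0.23 ± 0.10 and Ltbp2, the member that does not bind latent TGF-beta, by -0.09 ± 0.09. Neither passed.

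Lysyl oxidases, the enzymes that cross-link collagen and elastin, gave 0 calls among 2 measured genes with limma, and 0 at an unadjusted p under 0.05. Loxl1 had 5.89, 5.97 and 6.03 in Nkx2-1 high and 6.17, 6.29 and 5.98 in Nkx2-1 low, which overlap, with an interval of the difference from -0.39 to 0.04. For Lox the interval ran from -0.20 to 0.17.

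Small leucine-rich proteoglycans were the group of the 12 with calls in both directions. Bgn, the gene of biglycan, a proteoglycan of bone and tendon, had 8.66, 8.59 and 8.02 in Nkx2-1 high, against 9.10, 9.20 and 8.87 in Nkx2-1 low (-0.64 ± 0.16, 1.55-fold, limma adjusted p = 0.0498). This call lay at the threshold and was lost on leaving out each sample in turn except Nkx2-1 high replicate 1 (limma adjusted p from 0.0531 to 0.165), with arrays centred on their medians (limma adjusted p = 0.0573), with rows averaged per gene (0.0507) and with all single-symbol rows in 1 fit (0.0516). Prelp, which links basement membranes to the collagen beneath, had 6.16, 6.38 and 6.26 in Nkx2-1 high and 5.61, 5.86 and 5.64 in Nkx2-1 low, a rise of 0.56 ± 0.10 (1.47-fold, limma adjusted p = 0.00835).

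The remaining proteoglycans of that group did not pass. Lum, the gene of lumican, had 6.02, 5.84 and 5.22 in Nkx2-1 high and 6.82, 6.38 and 6.12 in Nkx2-1 low (-0.74 ± 0.22, limma adjusted p = 0.0853). Dcn, the gene of decorin, a collagen-binding antagonist of TGF-beta, had 8.11, 8.07 and 7.90 in Nkx2-1 high and 8.18, 7.82 and 7.59 in Nkx2-1 low, which overlap (interval of the difference -0.14 to 0.47). Fmod and Ogn were not above background.

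Among the lecticans, Ncan, the gene of neurocan, a proteoglycan of brain, fell. It had 4.86, 5.06 and 5.14 in Nkx2-1 high, against 5.46, 5.45 and 5.72 in Nkx2-1 low (-0.52 ± 0.11, 1.44-fold, limma adjusted p = 0.0181). The groups did not overlap, and the call was lost without Nkx2-1 high replicate 1 or 2 or Nkx2-1 low replicate 3 (limma adjusted p from 0.0562 to 0.0655). Vcan, the gene of versican, the lectican of embryonic mesenchyme, had 9.57, 9.71 and 9.81 in Nkx2-1 high and 9.94, 9.90 and 10.03 in Nkx2-1 low. These do not overlap either, and the difference of -0.26 ± 0.09 did not pass (limma adjusted p = 0.123). Acan and Bcan, lecticans of cartilage and brain, were not above background. Markers of neurons and ventral forebrain were lower beside Ncan: 10 of 11 fell, all 11 were above background in at least 1 fraction, and their mean log2 level ranged from 5.45 to 5.54 over the Nkx2-1 high samples and from 6.50 to 6.63 over the Nkx2-1 low samples. Their part in the fall of Ncan was not tested.

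Of the basement-membrane genes, Nid1 rose. It encodes nidogen-1, which links laminin to type IV collagen, and had 10.38, 10.15 and 9.55 in Nkx2-1 high, against 9.33, 9.36 and 8.99 in Nkx2-1 low. The groups did not overlap although replicate 3 was the lowest of each, and the rise was 1.74-fold (0.80 ± 0.19, limma adjusted p = 0.0372). It was lost on leaving out each sample in turn except Nkx2-1 high replicate 3 (limma adjusted p from 0.0755 to 0.135), and without that sample the adjusted p was 0.00281. Lamc1, the laminin chain that nidogen binds, named here after its values were seen, rose, averaging 9.98 ± 0.08 in the Nkx2-1 high samples and 8.86 ± 0.04 in the Nkx2-1 low samples (SD, n = 3 each, difference 1.13 ± 0.08, limma adjusted p = 6.74e-05). Lamc1 is from a list of 10 markers of parietal and visceral endoderm that also holds Lama1, Lamb1, Col4a1 and Col4a2. Of these 10 markers, 1 rose, which was Lamc1, 2 fell and 7 were not called. Nid2 differed by -0.13 ± 0.08, the agrin gene Agrn by -0.05 ± 0.08 and Hspg2, the gene of perlecan, by 0.31 ± 0.09 (limma adjusted p = 0.0893).

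Outside these groups, Matn2, a matrilin that connects matrix filaments, had 6.39, 6.43 and 6.57 in Nkx2-1 high, against 6.14, 5.94 and 5.93 in Nkx2-1 low. It rose with no overlap (0.46 ± 0.09, 1.37-fold, limma adjusted p = 0.0161), a call lost without Nkx2-1 high replicate 2 or Nkx2-1 low replicate 2 or 3 (limma adjusted p from 0.0583 to 0.0688). Matn4 differed by 0.23 ± 0.10 and Ecm1 by -0.06 ± 0.09, and neither passed.

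Replicate 3 was often the lowest of its group. In 18 of the 51 genes it was the lowest sample of Nkx2-1 high and also of Nkx2-1 low, against 14.8% of all genes. In 9 it was the highest of each, against 17.1% of all genes. Among the 45 members above background it was the lowest of each in 18, against 18.9% of all genes above background. It was the highest of each in 6 of those 45, against 16.8%. The 18 include Postn, Edil3, Fn1, Ltbp1, Nid1, Bgn, Lum and Sparcl1. Without both samples numbered 3, a fit added after the data were seen, 5 of the 51 rose and 10 fell, and Postn, Edil3 and Ltbp1 kept their calls.

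**Figure D4:**
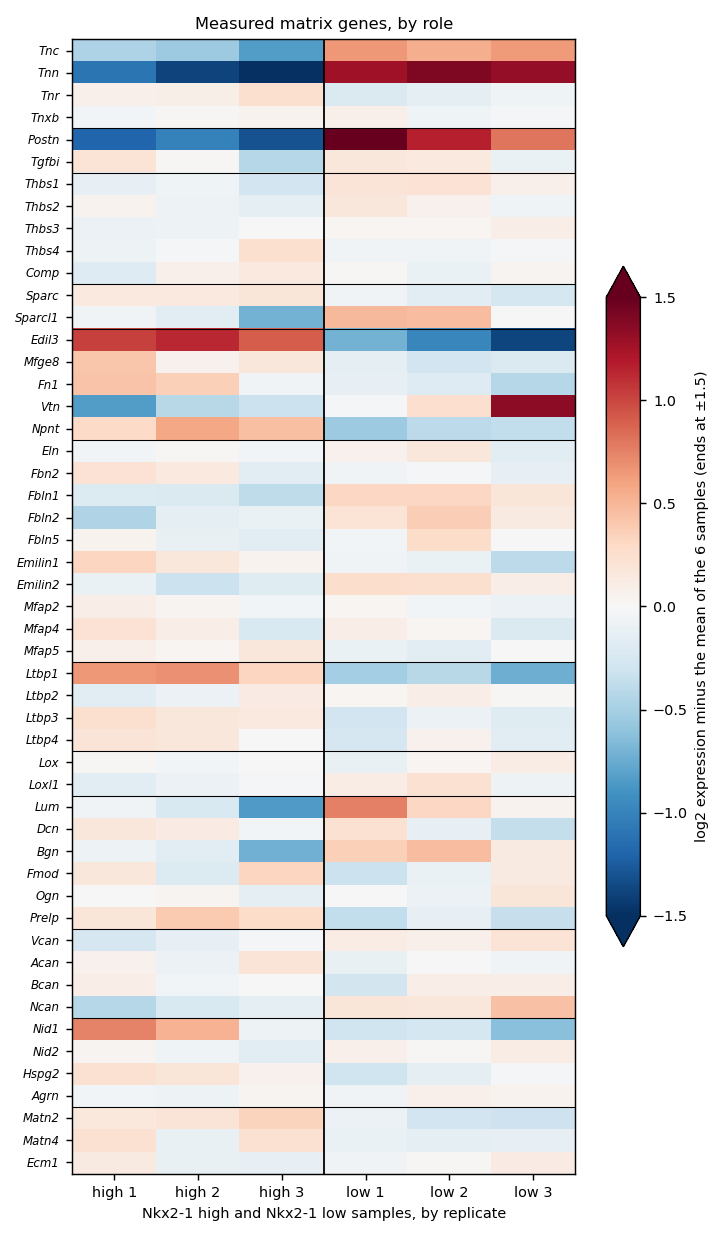
Log2 expression of the 51 measured matrix genes (rows, by role) in the 3 Nkx2-1 high samples and the 3 Nkx2-1 low samples (columns), each minus the mean of its 6 samples. Colours end at ±1.5. Tnn, Postn and Edil3 split by group, and genes such as Lum, Bgn, Nid1 and Sparcl1 are also lower in replicate 3 of each group.

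Several of the genes are direct neighbours among protein-coding genes of the RefSeq table of GRCm38.p6, and no pair of direct neighbours described here had both genes called. Edil3, the link-protein gene Hapln1 and Vcan lie side by side, and Acan, Hapln3 and Mfge8 form a second such row of a lectican, a link protein and an Edil3 relative. In the first, Edil3 rose by 2.05 ± 0.15, Hapln1 was not above background, and Vcan differed by -0.26 ± 0.09. In the second, Mfge8 rose by 0.43 ± 0.10, Hapln3 differed by -0.26 ± 0.09, close to background in each fraction, and Acan was not above background. Bcan lies beside Hapln2, which differed by -0.08 ± 0.13, and Ncan beside Hapln4, which was not above background. Prelp, which rose, is next to Fmod, which was not above background, and Dcn and Lum, which are adjacent, differed by 0.16 ± 0.14 and -0.74 ± 0.22. Whether the differences of neighbours differ from each other was not tested.

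**Figure D5:**
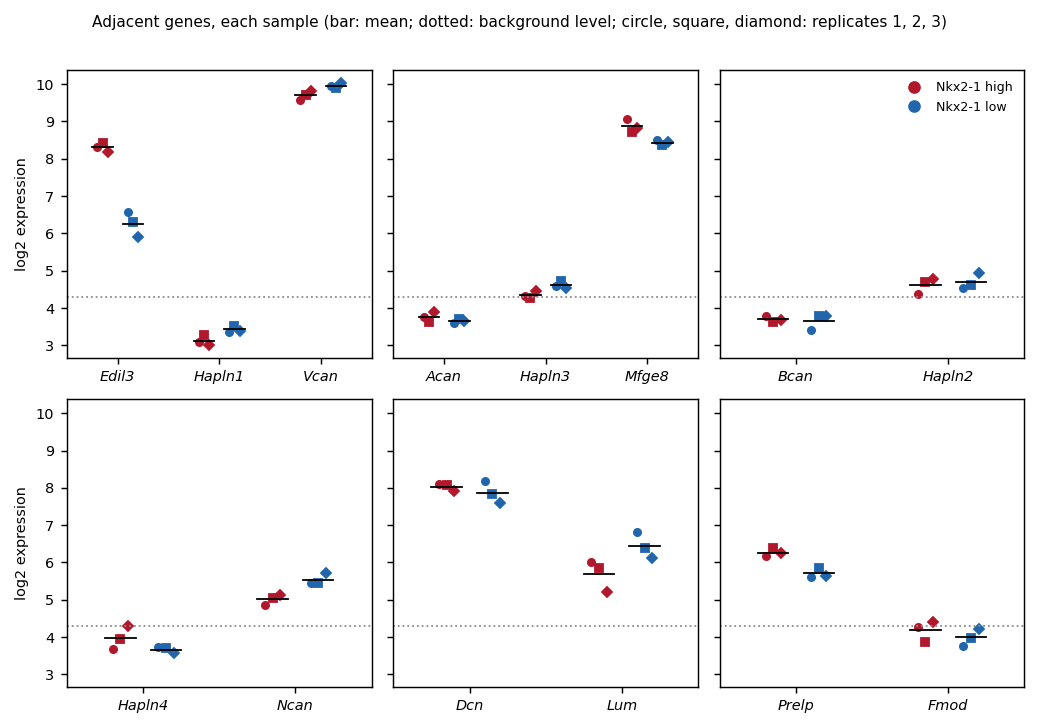
Log2 expression (vertical axis) of genes that lie next to each other, in each Nkx2-1 high sample (red, left of each gene) and Nkx2-1 low sample (blue, right). Bars are means, symbols mark the replicate number and the dotted line is the background level of 4.30. Edil3 differs by 2.05 while Vcan, on the other side of Hapln1, differs by -0.26.

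Other matrix genes were read from 3 lists of partners, also chosen with earlier results of these data known. Of 45 measured genes of matrix assembly, cross-linking and further matricellular proteins, 6 rose and 3 fell (median difference 0.00, beside -0.01 over all genes). These are 13.3% and 6.67% of the list, beside 2.90% and 3.09% of all genes. Of the 45 genes 38 were above background, and of all genes above background 4.13% were called higher and 4.27% lower. The number that fell was 1 when Nkx2-1 high replicate 1 or 2 or Nkx2-1 low replicate 2 was left out, 2 on dropping Nkx2-1 low replicate 3 and 5 on dropping Nkx2-1 high replicate 3. The number that rose was between 4 and 6 in those fits. Spock3, a testican proteoglycan, exceeded background in the Nkx2-1 high samples alone and was at least 1.8-fold higher there (limma adjusted p = 0.000702), and Ccn1, an integrin-binding matricellular protein, rose by 0.78 ± 0.08 (limma adjusted p = 0.000504). Efemp1, a fibulin, exceeded it in the Nkx2-1 low samples alone and was lower in Nkx2-1 high by at least 1.6-fold (limma adjusted p = 0.00243). Smoc1, a SPARC relative, fell by 0.84 on the log2 scale (limma adjusted p = 0.0233), a call lost without any 1 of the Nkx2-1 high samples or Nkx2-1 low replicate 2 (limma adjusted p from 0.0525 to 0.0828).

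Of 37 genes that build glycosaminoglycan chains and hyaluronan, 3 rose and 1 fell (median difference 0.02). These are 8.11% and 2.70% of the list, beside 2.90% and 3.09% of all genes, so the share that fell was near that of all genes. Of the 37 genes 30 were above background, where 4.13% of all genes were called higher and 4.27% lower. In each fit without 1 sample 3 rose, while the number that fell was 2 on dropping Nkx2-1 high replicate 3, 1 on dropping replicate 2 of that group and 0 when its replicate 1 or any 1 Nkx2-1 low sample was left out. Xylt1, which adds the first sugar of the chain to a proteoglycan core, rose 1.95-fold (0.96 ± 0.08, limma adjusted p = 0.000121), and Chsy3, a chondroitin synthase gene, by 0.83 ± 0.12 (limma adjusted p = 0.0032). Has3, a hyaluronan synthase gene, exceeded background in Nkx2-1 high alone and rose at least 1.76-fold (limma adjusted p = 0.00274). The gene that fell was Chst7, a sulphotransferase gene not above background, and its call was lost on leaving out each sample in turn except Nkx2-1 high replicate 3 (limma adjusted p from 0.0765 to 0.133).

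Of 27 receptors of matricellular and adhesive proteins, 4 rose and 4 fell (median difference -0.01). Each is 14.8% of the list, beside 2.90% and 3.09% of all genes. Of the 27 genes 25 were above background, where 4.13% of all genes were called higher and 4.27% lower. In each fit without 1 sample 4 fell. The number that rose was 6 on dropping Nkx2-1 high replicate 3, 2 on dropping Nkx2-1 high replicate 2 or Nkx2-1 low replicate 1 or 3, and 1 when Nkx2-1 high replicate 1 or Nkx2-1 low replicate 2 was left out. Ptprz1, a receptor phosphatase of neural cells that binds tenascins, averaged below background in Nkx2-1 high, with 3.98, 4.12 and 4.47 there, against 6.79, 6.40 and 6.25 in Nkx2-1 low, a fall of at least 4.53-fold (limma adjusted p = 6.62e-05). The fibrillar collagen receptor gene Ddr2 (-0.85 ± 0.14) and the integrin gene Itga4 (-0.83 ± 0.14) fell, and Cd44, the hyaluronan receptor gene, rose by 0.85 ± 0.11 (limma adjusted p = 0.00235). Some receptors are named here after their values were seen, for their known ligands. For Edil3 and Mfge8, Itgb5 rose by 0.51 ± 0.11 (limma adjusted p = 0.0265), a call lost without Nkx2-1 high replicate 1 or 2 or Nkx2-1 low replicate 2 or 3 (limma adjusted p from 0.0826 to 0.103), and Itgav differed by 0.38 ± 0.12 (limma adjusted p = 0.107, and 0.0359 without Nkx2-1 high replicate 3). Itgb3, the other αv partner known to bind these ligands, overlapped between groups and differed by 0.14 ± 0.09 (limma adjusted p = 0.490). For nephronectin, Itga8 differed by -0.07 ± 0.21. For tenascin-C, Itga9 rose by 0.43 ± 0.11 (limma adjusted p = 0.0417), lost on leaving out each sample in turn except Nkx2-1 high replicate 3 (limma adjusted p from 0.0647 to 0.123) and with arrays centred on their medians (limma adjusted p = 0.0506).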

How the data were processed

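RNA of 3 Nkx2-1 high and 3 Nkx2-1 low samples was amplified with a whole-transcript kit and hybridised to arrays, per the labels' protocols. Amplifying RNA before labelling can shift how strongly different transcripts register. The authors deposited log2 expression values. RMA, which subtracts background, equalises arrays and summarises probes, is named in the submitters' processing notes without a version. The log base was taken from that use and from the range of the values, and no source used here gives scan batches or a genome build.

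Of 29011 rows, 21789 had 1 gene symbol, and the highest-mean row was used for each of 19938 genes. Each of the 51 measured members had 1 row. The fit used limma 3.58.1 under R 4.3.3 (group as the only term, eBayes, Benjamini-Hochberg over all genes). The number of arrays limits the precision. Background was the 95th percentile of the values of 1210 chemosensory receptor rows. A fold of a gene above it in only 1 group is taken against that level and written "at least".

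The members, roles and partner lists were chosen with earlier results of these data known. Named with values by sample were every called member, the largest difference of each role without a call, and Mfap2, with others added for contrast after their values were seen. Of each partner list up to 4 called genes were named. The fit was tested on simulated data. It called 56% of simulated log2 changes of 0.5, 92% of changes of 1 and 100% of changes of 1.5, with 2 false calls. A missing call therefore does not show that a gene did not change. Alternatives were other normalizations, variance models, weights, gene rows, thresholds, a replicate block and leaving out samples. Figures used matplotlib 3.10.9 in Python 3.11.15.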

Additional observations from a re-analysis of the deposited data

How the results depend on the processing

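At an adjusted p threshold of 0.01 the counts were 507 for all genes, 4 higher and 4 lower for the matrix genes, 1 lower for the assembly list, 0 lower for the glycosaminoglycan list and 1 higher for the receptors. With array weights the assembly list had 6 lower and the glycosaminoglycan list 2 lower, and with the replicate block the glycosaminoglycan list had 2 lower. Without both samples numbered 3, 5 matrix genes were higher and 0 genes of the glycosaminoglycan list lower. Over the fits without 1 sample the number called ran from 624 to 1086 for all genes, from 4 to 8 higher and from 4 to 6 lower for the matrix genes, from 1 to 5 lower for the assembly list, from 0 to 2 lower for the glycosaminoglycan list and from 1 to 6 higher for the receptors. Each of these fits has fewer samples than the main fit, and the cause of the changed counts was not tested. Same-numbered samples deviated together for numbers 1 and 3 (correlation 0.18 and 0.28 over genes) but not for 2 (-0.0041). Samples with unlike numbers could come close to this: Nkx2-1 high replicate 2 with Nkx2-1 low replicate 1 gave 0.15. With Nkx2-1 low replicate 3, Nkx2-1 high replicates 1 and 2 gave -0.19 and -0.14. Nkx2-1 high replicate 3 with Nkx2-1 low replicate 1 gave -0.27. For Nkx2-1 low replicate 2 the correlations with Nkx2-1 high replicates 1, 2 and 3 were 0.010, -0.0041 and -0.0058. Its value therefore cannot settle whether the numbers mark pairs, and the main fit did not take them as pairs. The replicate block raised the matrix genes to 10 higher and 12 lower, as Thbs1 (adjusted p = 0.0423), Sparcl1 (0.00267), Fn1 (0.00869), Vtn (0.00919), Emilin1 (0.0282) and Lum (0.0025) passed in limma, and none of the 16 calls was lost. Among matrix genes not called, other planned settings on all 6 samples passed Sparc and Fn1 (cyclic loess, genes above background, mean-variance trend, array weights; adjusted p from 0.0158 to 0.0293 for Sparc and from 0.0150 to 0.0419 for Fn1), Thbs1 (genes above background 0.0380, trend 0.0268), Emilin1 (trend 0.0493, weights 0.0498), Hspg2 (trend 0.0406, weights 0.0457) and Vtn (weights 0.0422). The counts of matrix genes under the other settings were within 1.5 times those reported. The median over all genes moved by under 0.1 in every fit. Differences that changed sign belonged to genes without a call. Without 1 sample at a time, Mfap4 ran from -0.038 to 0.19, Pdgfrb ran from -0.12 to 0.23, Hapln2 ran from -0.16 to 0.038, Comp ran from -0.048 to 0.12, Lox ran from -0.074 to 0.037, Tgfbi ran from -0.28 to 0.036, Thbs4 ran from -0.0059 to 0.15, Foxa2 ran from -0.093 to 0.065, Itga8 ran from -0.24 to 0.21, Bcan ran from -0.078 to 0.11, Tnxb ran from -0.0094 to 0.060, Eln ran from -0.14 to 0.019, Ogn ran from -0.12 to 0.019. With array weights the difference was -0.0090 for Bcan, 0.059 for Itga8. Without both samples numbered 3 the difference was -0.012 for Tnxb, -0.019 for Comp, 0.029 for Lox, 0.072 for Ogn, 0.027 for Ecm1, 0.10 for Foxa2, 0.10 for Itga8.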
